A study of Mus musculus with 6 samples.

Results

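The heat shock proteins described here are 10 chaperone genes whose transcription is raised by heat shock factor 1 (HSF1): Hspa1a, Hspa1b, Hspa8, Hsp90aa1, Hsp90ab1, Hspb1, Hsph1, Dnajb1, Hspd1 and Hspe1. All 10 were found by symbol among the 24848 genes of the deposited expression table, and 8 of them were abundant enough to be tested. The samples were RAW 264.7 cells, a mouse macrophage-like tumour line, as 3 wild-type (WT) libraries and 3 libraries of RAW 264.7 cells with an APOBEC1 knockout (KO). APOBEC1 is an enzyme that edits cytidine to uridine in RNA, and the study used these libraries to compare a Sanger-based measure of RNA editing with RNA sequencing. Both groups were grown in the same high-glucose medium with serum, glutamine and antibiotics, no stress or drug treatment is named in the labels, and each RNA came from its own plate. Neither the way the knockout was made nor the number of clones is stated, so an effect of the genotype cannot be told apart from other differences of the lines. A p here reflects variation among plates.

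Chaperones hold unfolded proteins until they reach their native shape. HSP70 proteins bind short hydrophobic stretches in a cycle driven by ATP, J-domain proteins start that cycle and nucleotide exchange factors end it, while HSP90 proteins finish the folding of kinases and receptors. In unstressed cells HSF1 is held inactive by chaperones. On heat or protein damage it binds heat shock elements, inverted repeats of a short unit, and switches on the inducible members, whereas constitutive members such as Hspa8 and Hsp90ab1 are high at all times.

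Levels are in CPM, the reads of a gene scaled by the size of its library, from libraries of 50493447 to 70411383 reads. A single read was worth 0.0142 to 0.0198 CPM, and 3 reads, the limit that a count of 0 allows for counting error, 0.0426 to 0.0594 CPM. The macrophage identity of the line was checked with 9 markers, whose summed level was 3651 to 3796 CPM in WT against 3950 to 4384 CPM in KO. Lyz2 alone rose from 708 ± 49.0 to 1238 ± 121 CPM, and the other 8 summed to 2949 to 3134 CPM in WT and 2809 to 3033 CPM in KO. Limma called Lyz2 and Spi1 higher in KO and Adgre1 and Fcgr1 lower, and the part of these marker differences in the values of the heat shock genes was not tested. The 8 markers of other cell types summed to at most 0.223 CPM in any library. Apobec1, the targeted gene, stood at 400 ± 29.3 CPM in WT against 347 ± 12.5 CPM in KO (limma adjusted p = 0.0663, SD, n = 3 each), so its transcript level does not check the knockout label, and KO here means the libraries labelled as knockout. In a bulk sample, fewer cells with a transcript and less of it per cell cannot be told apart.

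The summed level of the heat shock transcripts overlapped between the groups, while single members lay apart. The 10 genes summed to 7683, 7533 and 7639 CPM in the WT libraries and to 7668, 7524 and 7537 CPM in the KO libraries, each given in the order of replicates 1 to 3. The ranges overlapped (7618 ± 77.3 CPM in WT against 7576 ± 79.8 CPM in KO, SD, n = 3 each, exact two-sided permutation p = 0.6). Of that sum, Hsp90ab1 made up 45.5% in WT and 40.1% in KO, Hspa8 23.3% and 24.0%, Hspd1 17.5% and 20.7%, and Hsp90aa1 8.39% and 10.1%.

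Of the 8 tested members, 2 were called higher in KO (Hsp90aa1 and Hspd1), 2 lower (Hspa1b and Hsph1), and 4 were not called. Over all 10614 tested genes limma called 30.4%, 13.5% higher and 16.9% lower. The groups did not overlap for 5 of the 8 members, against 46.4% of all tested genes. EdgeR and DESeq2 each called the same 4 members, where they called 31.6% and 35.4% of all tested genes. The median log2 fold change of the 8 was 0.02, and that of all tested genes was -0.02. Hspa1b passed the filter on low values only through its WT libraries, so its count among the called is no support for a change of the group.

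**Figure D1:**
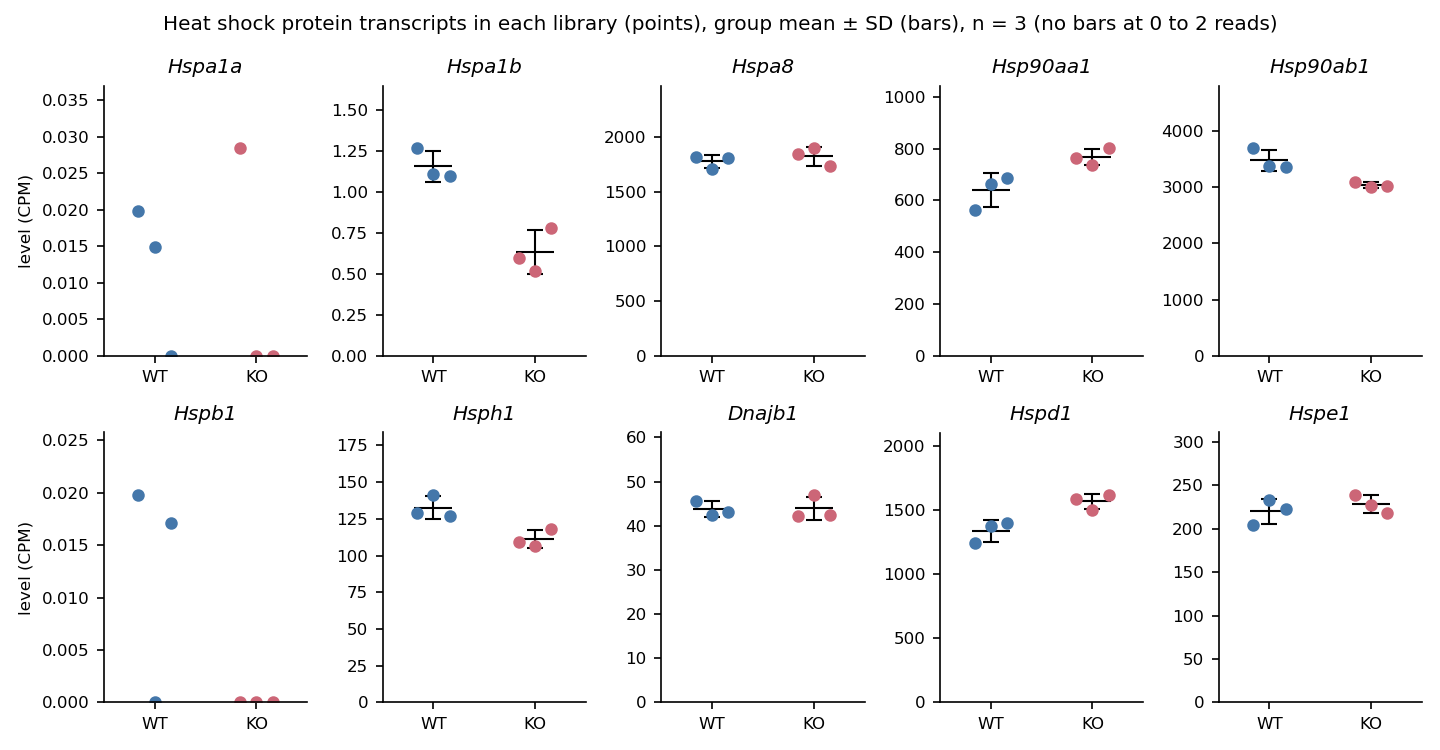
Level of each of the 10 heat shock transcripts in CPM (vertical axis from 0, a scale for each gene) in the 3 WT and 3 KO libraries (points), with mean ± SD (bars). Hspa1a and Hspb1 lie at 0 to 2 reads in every library, and the WT and KO points do not overlap for Hspa1b, Hsp90aa1, Hsp90ab1, Hsph1 and Hspd1.

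Per length, Hsp90ab1 led. The column names of the deposited table record that duplicate reads were removed, and what that did to the most abundant transcripts was not tested. With the longest coding transcript of each gene as its length, WT cells held 1377 ± 74.2 CPM per kilobase of Hsp90ab1, 742 ± 26.0 of Hspa8, 551 ± 35.2 of Hspd1, 284 ± 19.1 of Hspe1, 195 ± 20.02 of Hsp90aa1, 34.8 ± 2.06 of Hsph1, 14.6 ± 0.581 of Dnajb1 and 0.413 ± 0.034 of Hspa1b (SD, n = 3). The order was the same in KO, and the ranges over all 6 libraries of neighbours in it did not overlap. With the union of all annotated exons as length, Hspd1 (505 CPM per kilobase in WT) passed Hspa8 (413) and Hsp90aa1 (163) passed Hspe1 (149), so these pairs have no firm order. Among tested genes ranked by mean CPM, Hsp90ab1 was number 11, Hspa8 number 32, Hspd1 number 50 and Hsp90aa1 number 157.

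The inducible HSP70 genes Hspa1a and Hspa1b, which encode nearly identical proteins and are the classical reporters of HSF1 activity, were listed with few reads in both groups. Both are single-exon protein-coding genes on the minus strand of mm10 chromosome 17, Hspa1a (ENSMUSG00000091971.3) at 34969190 to 34972156 and Hspa1b (ENSMUSG00000090877.3) at 34956436 to 34959238. Hspa1a had 1, 1 and 0 reads in the WT libraries, against 2, 0 and 0 in KO, so no difference was detectable at this depth. Hspa1b had 64, 75 and 64 reads in WT and 42, 31 and 52 in KO. Every KO library was thus below every WT library.

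Hspa1b stood at 1.27, 1.11 and 1.1 CPM in WT against 0.596, 0.519 and 0.780 CPM in KO (1.16 ± 0.0946 against 0.632 ± 0.134 CPM, n = 3). Its mean fell by 45.5%, and the log2 fold change on log2(CPM + 0.5) was -0.56 ± 0.12 (SE, limma adjusted p = 0.0116). Because Hspa1b entered the test only through its WT libraries, the fit without a filter is set beside it, which gave the same fold change with an adjusted p of 0.0112. The added 0.5 shrinks the fold change of a gene this low, which was -0.80 with 0.1 added and -0.41 with 1 added. EdgeR on the reads, with the filter, gave -0.84 (adjusted p = 0.00965). Summed with Hspa1a, since counting can split reads between the copies, the pair stood at 1.17 ± 0.103 CPM in WT against 0.641 ± 0.132 CPM in KO, a log2 difference of -0.88 (exact two-sided permutation p = 0.1, as low as this design can go). The call was lost without KO replicate 1 (adjusted p = 0.0575) and without KO replicate 2 (adjusted p = 0.0528), and under quantile normalization the value was -0.10 (adjusted p = 0.576).

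Reads of such copies can be lost or moved in counting. Of all 125-base stretches of the Hspa1b transcript, 44.8% also occur letter for letter in a transcript of another gene, all of them in Hspa1a, and 50.9% of those of Hspa1a do, which leaves 49.1% found in no other annotated gene. Hspa1a also overlaps Gm20481, a gene annotated on the opposite strand. Ubb, a ubiquitin gene that every cell uses, is listed at only 17 to 29 reads per library, with 47.8% of its stretches shared with other annotated genes (it was singled out after its values were seen). Hspa8 shares 59.1% of its stretches with other genes and is listed at 91647 or more reads in each library. The part that read assignment plays in the low values of Hspa1a and Hspa1b was not tested.

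The start-site windows of these genes were searched for heat shock elements, the sequence through which HSF1 acts. The windows are RefSeq sequences of build GRCm38.p6, 250 bases before to 50 after an annotated start, and were found for 7 of the 10 members. Hspa8, Hsp90aa1 and Hsp90ab1 had none. Cores of the element, GAANNTTC (type 1) and TTCNNGAA (type 2), each equal to its own reverse complement so that a search covers both strands, were in at least 1 window of 6 of the 7 members. By window, 7 of the 10 held a core, and some of these windows overlap or are nearly the same. Of all 32851 promoter windows of this length, 15.1% held either core, 7.86% type 1 and 8.52% type 2. The cores overlap when a longer run of units alternates, and 0.603% of all windows held a run of 3 or more units. Hspa1a and Hspa1b are shown side by side because their windows are nearly the same, with the core in capitals, 5′ to 3′ on the minus strand, at chr17:34972107-34972406 and chr17:34959189-34959488.
Hspa1a: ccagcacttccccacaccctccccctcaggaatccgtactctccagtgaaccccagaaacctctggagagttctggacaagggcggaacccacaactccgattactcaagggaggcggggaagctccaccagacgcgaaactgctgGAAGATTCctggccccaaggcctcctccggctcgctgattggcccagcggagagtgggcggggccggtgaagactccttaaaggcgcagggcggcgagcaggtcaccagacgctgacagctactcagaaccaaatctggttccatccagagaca
Hspa1b: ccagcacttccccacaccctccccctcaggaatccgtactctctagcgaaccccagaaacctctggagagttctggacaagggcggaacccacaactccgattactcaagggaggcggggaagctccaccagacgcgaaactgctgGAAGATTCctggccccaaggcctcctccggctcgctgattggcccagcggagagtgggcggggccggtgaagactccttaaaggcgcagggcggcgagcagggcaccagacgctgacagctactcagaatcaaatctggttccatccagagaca
Both carry 1 type 1 core, whose first base is at -104 from the start, and no run of 3 units. The windows agree at 296 of 300 positions (98.7%). Counted from 1 at the 5′ end, with the base of Hspa1a written before the position and that of Hspa1b after it, the differences are C44T, T47C, T249G and C276T. A match is a description of the letters and does not show that HSF1 was bound.

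Hspb1, the small heat shock protein HSP25, which keeps damaged proteins from clumping and binds actin, was listed with almost no reads. The gene (ENSMUSG00000004951.10) lies on the plus strand of mm10 chromosome 5, 135887919 to 135889563. It had 1, 0 and 1 reads in WT and 0 in each KO library, all under the limit of 3 reads, so no fold is given. Its window, chr5:135887669-135887968 on the plus strand, is shown because it holds 2 type 1 cores (capitals), with first bases at -117 and -97 from the start, in a gene with almost no reads.
Hspb1: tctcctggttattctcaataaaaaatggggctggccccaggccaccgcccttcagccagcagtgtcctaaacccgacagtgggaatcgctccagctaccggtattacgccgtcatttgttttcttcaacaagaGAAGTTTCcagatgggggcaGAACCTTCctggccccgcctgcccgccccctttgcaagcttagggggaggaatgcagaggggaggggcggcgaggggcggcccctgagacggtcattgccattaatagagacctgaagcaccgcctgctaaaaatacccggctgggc
Of its stretches of 125 bases, 38.6% are shared with other annotated genes. Of the 9 other genes listed by name as small heat shock proteins or crystallins, 3 were tested. Limma called 0 of them, edgeR 0 and DESeq2 0, with 0 at an unadjusted p under 0.05. Over all tested genes limma called 30.4%. The most abundant of the tested were Hspb11 (9.52 ± 0.769 CPM in WT against 8.37 ± 0.0399 CPM in KO) and Hspb6 (6.62 ± 0.741 and 6.73 ± 0.178 CPM), while Cryab, alpha-B crystallin, had at most 1 read in any library.

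Hspa8 encodes HSC70, the constitutive HSP70 of the cytosol, which also uncoats clathrin vesicles and delivers proteins to lysosomes. It lies on mm10 chromosome 9, 40800984 to 40810087, plus strand, and its span holds the small nucleolar RNA genes Snord14c, Snord14d and Snord14e. Hspa8 stood at 1815, 1705 and 1809 CPM in WT against 1840, 1895 and 1730 CPM in KO. The groups overlapped. The log2 fold change was 0.04 ± 0.07 (limma adjusted p = 0.736), with a 95% confidence interval of -0.13 to 0.20.

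Dnajb1 encodes HSP40, the heat-inducible J-domain protein that hands clients to HSP70. At mm10 chromosome 8, 83608193 to 83612653, plus strand, it read 45.7, 42.3 and 43.2 CPM in WT against 42.2, 47.0 and 42.5 CPM in KO. These values overlapped, and the log2 fold change was 0.0045 ± 0.07 (limma adjusted p = 0.970, 95% confidence interval -0.16 to 0.17). Neither of its 2 windows held a core, and the later start, 83608548, lies inside the annotated span. Only exact cores were searched, so this does not show that the gene lacks an element.

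Hsph1 encodes HSP105, a large relative of HSP70 of the HSP110 family that works as a nucleotide exchange factor and keeps aggregates soluble. It lies on mm10 chromosome 5, 149614287 to 149636376, minus strand. Hsph1 stood at 129, 141 and 127 CPM in WT against 109, 107 and 118 CPM in KO, each KO library below each WT library. Its mean fell by 15.97%, with a log2 fold change of -0.25 ± 0.07 (limma adjusted p = 0.0306). The call was lost without WT replicate 2 (adjusted p = 0.101), without WT replicate 3 (0.0598), without KO replicate 1 (0.112) and without KO replicate 2 (0.113). The ratio of Hsph1 to Hspa8 was 0.0747 ± 0.00715 in WT and 0.0612 ± 0.00615 in KO. These ratios did not overlap, and the exact two-sided permutation p of 0.1 is the smallest that 3 against 3 libraries allow.

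A window of Hsph1, chr5:149636266-149636565 on the minus strand, is shown because it holds a run of alternating units, as 0.603% of all windows do. Capitals mark the cores, a type 2 core with its first base at -54 from the start and the run, whose first base is at 16.
Hsph1: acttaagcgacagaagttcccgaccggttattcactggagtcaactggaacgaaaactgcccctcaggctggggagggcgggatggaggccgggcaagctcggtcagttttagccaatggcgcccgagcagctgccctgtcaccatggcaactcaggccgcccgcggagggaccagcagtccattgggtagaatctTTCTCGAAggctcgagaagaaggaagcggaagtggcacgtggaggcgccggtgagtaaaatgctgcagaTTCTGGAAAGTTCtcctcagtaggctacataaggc
Hsph1 thus holds a longer run in this window than Hspa1a and Hspa1b do in theirs.

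**Figure D2:**
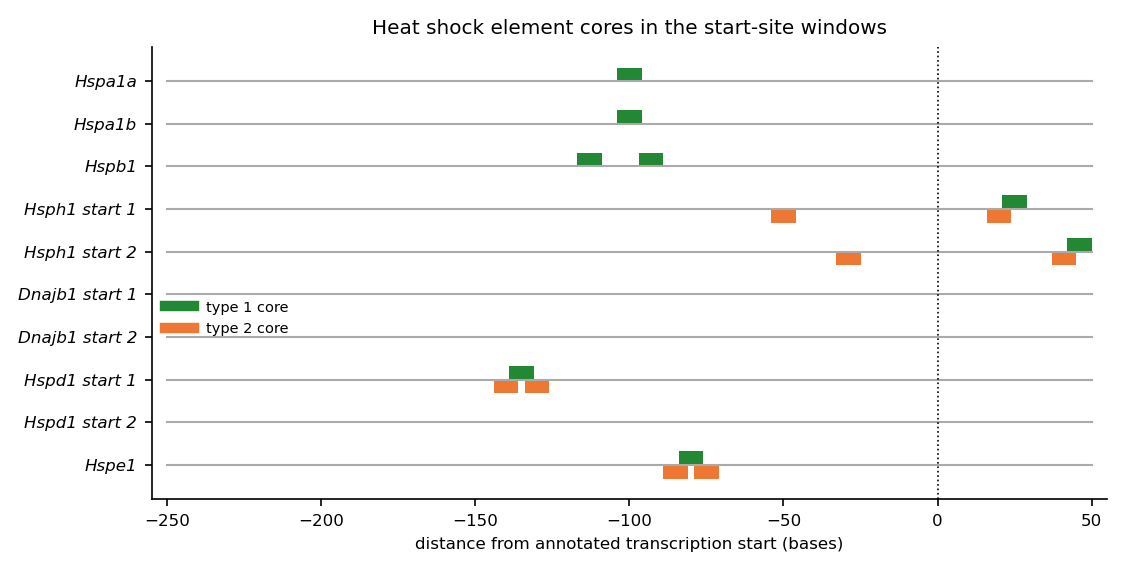
Position of heat shock element cores (type 1 green, type 2 orange) in the 10 start-site windows of 7 members, in bases from the annotated start (dotted line). Type 2 and type 1 cores overlap into longer runs in Hsph1 and in the overlapping windows of Hspd1 and Hspe1, and the 2 windows of Dnajb1 hold none.

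Of the cytosolic HSP90 isoforms, 1 rose and the other was lower without passing the test. Hsp90aa1 encodes HSP90 alpha, the stress-inducible form, and Hsp90ab1 HSP90 beta, the constitutive form. Hsp90aa1 lies on mm10 chromosome 12, 110690605 to 110702728, and Hsp90ab1 on chromosome 17, 45567775 to 45573271, both on the minus strand. Hsp90aa1 stood at 565, 664 and 689 CPM in WT against 766, 739 and 801 CPM in KO, with all KO libraries above all WT libraries. The mean rose 1.2-fold, with a log2 fold change of 0.27 ± 0.09 (limma adjusted p = 0.0489, 95% confidence interval 0.07 to 0.47).

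Hsp90ab1, the most abundant member, stood at 3686, 3375 and 3350 CPM in WT against 3090, 3006 and 3009 CPM in KO. The groups did not overlap. Its KO mean was 0.875 times the WT mean, and its log2 fold change of -0.19 ± 0.07 missed the threshold in limma (adjusted p = 0.0874), in edgeR (0.180) and in DESeq2 (0.0873). The median log2 fold change of the 562 tested genes on chromosome 17 was -0.07, and that of the 357 on chromosome 12 was -0.02.

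Hsp90aa1 made up 13.3%, 16.4% and 17.05% of the reads of both isoforms in WT and 19.9%, 19.7% and 21.0% in KO (15.6% ± 2.02 and 20.2% ± 0.718, SD, n = 3). Each KO library lay above each WT library, and this share does not depend on scaling between libraries. Of the 125-base stretches of Hsp90aa1, 41.3% are shared with other annotated genes and of Hsp90ab1 0%, so the share and the level per length of Hsp90aa1 also depend on how shared reads were counted, which was not tested. The exact two-sided permutation p was 0.1, the smallest this design allows (0.14 after Benjamini-Hochberg adjustment over 7 sums and ratios, which were chosen after the values were seen). The sum of both isoforms was 4110 ± 122 CPM in WT against 3804 ± 55.7 CPM in KO, again without overlap (exact permutation p = 0.1, adjusted 0.14). WT replicate 1 had the lowest share and the lowest Hsp90aa1. It also had the fewest reads of any library and the largest share of the ribosomal RNA precursor Rn45s, at 2.75% of reads. WT replicate 3, with 2.43% Rn45s, had the highest share and the highest Hsp90aa1 among the WT libraries. Without WT replicate 1 the difference in share was 3.46 percentage points instead of 4.61, and the log2 fold change of Hsp90aa1 was 0.18 (limma adjusted p = 0.0502).

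**Figure D3:**
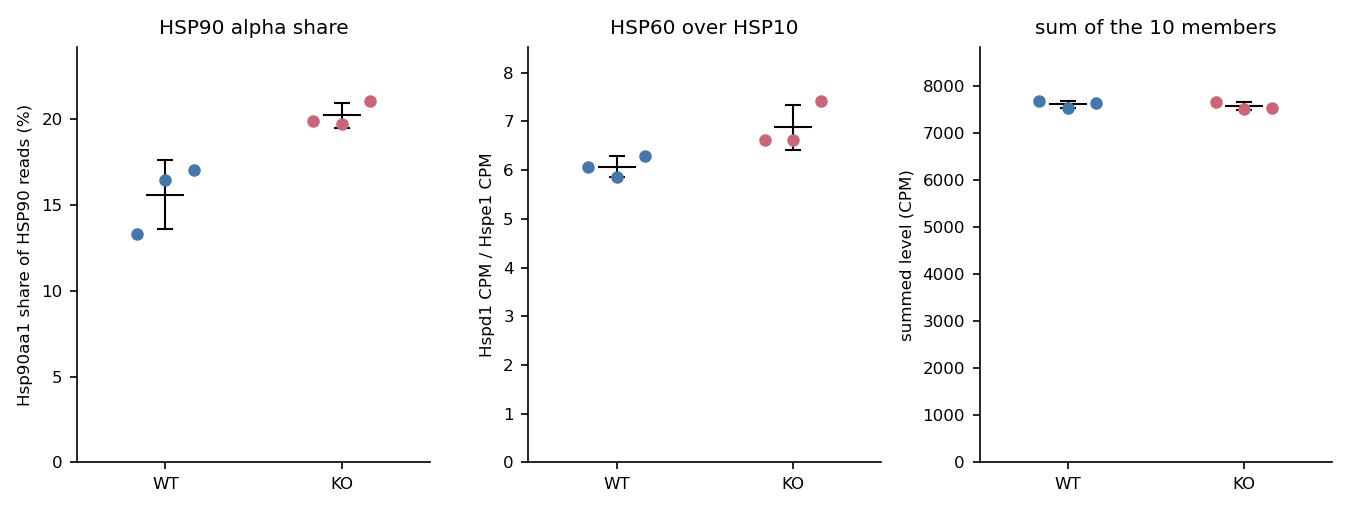
Share of Hsp90aa1 in the reads of Hsp90aa1 and Hsp90ab1 (percent), ratio of Hspd1 to Hspe1, and sum of the 10 members (CPM), for each library (points) with mean ± SD (bars), axes from 0. KO libraries lie above WT libraries for the share (19.7% to 21.0% against 13.3% to 17.05%) and for the ratio, and the sums overlap.

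Hspd1 and Hspe1 encode the mitochondrial chaperonin HSP60 and its lid HSP10, which together form a folding chamber in the matrix. They lie head to head on mm10 chromosome 1, Hspd1 at 55077835 to 55088243 on the minus strand and Hspe1 at 55088132 to 55091307 on the plus strand. Their annotated spans share 112 bases, and reads there cannot be assigned without strand. A RefSeq start of Hspd1, 55087932, lies 216 bases before that of Hspe1, so their windows overlap. Another Hspd1 start, 55088243, lies past the Hspe1 start, and its window held no core. The Hspe1 window, chr1:55087898-55088197 on the plus strand, is shown because the element in it lies between the 55087932 start and the Hspe1 start.
Hspe1: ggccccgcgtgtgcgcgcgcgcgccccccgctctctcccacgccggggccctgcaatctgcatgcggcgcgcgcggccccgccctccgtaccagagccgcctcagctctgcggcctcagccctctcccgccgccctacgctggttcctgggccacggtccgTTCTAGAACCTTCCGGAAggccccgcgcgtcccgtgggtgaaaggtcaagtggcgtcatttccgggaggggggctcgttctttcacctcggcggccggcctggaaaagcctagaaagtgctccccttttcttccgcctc
The capitals mark an unbroken run of alternating units formed by 3 overlapping cores. Its first base is at -89 from the start of Hspe1 and, read on the other strand, at -144 from the 55087932 start of Hspd1.

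Of these neighbours Hspd1 was called and Hspe1 was not. Hspd1 stood at 1238, 1370 and 1397 CPM in WT against 1581, 1502 and 1617 CPM in KO, with no overlap. It rose 1.17-fold (log2 fold change 0.23 ± 0.07, limma adjusted p = 0.0481, 95% confidence interval 0.06 to 0.40). Hspe1 stood at 204, 233 and 222 CPM in WT against 239, 227 and 218 CPM in KO, and the groups overlapped. Its log2 fold change was 0.05 ± 0.07 (limma adjusted p = 0.610, 95% confidence interval -0.11 to 0.22). The ratio of Hspd1 to Hspe1 in each library was 6.06, 5.87 and 6.29 in WT and 6.61, 6.61 and 7.41 in KO. The KO ratios lay above the WT ratios (exact two-sided permutation p = 0.1, the smallest possible, adjusted 0.14). With 3 against 3 libraries this permutation test cannot reach the threshold of 0.05, so it cannot decide whether the genes differ. Of the 125-base stretches, 22.1% of those of Hspd1 and 17.4% of those of Hspe1 are shared with other annotated genes. What the counting of shared reads did to the ratio was not tested. Without KO replicate 3 the difference in ratio was 0.540 instead of 0.807.

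The calls of Hsp90aa1 and Hspd1 sit at the threshold. Leaving out any 1 of the 6 libraries ended both calls, with adjusted p of 0.0502 to 0.137 for Hsp90aa1 and 0.0621 to 0.147 for Hspd1. Their direction held in each of the 19 alternatives, with log2 fold changes of 0.18 to 0.33 and 0.18 to 0.32. The calls were also lost in both genes when values were rescaled without Rn45s (adjusted p = 0.0532 and 0.0577), and in limma without a trend, without a filter and under quantile normalization.

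**Figure D4:**
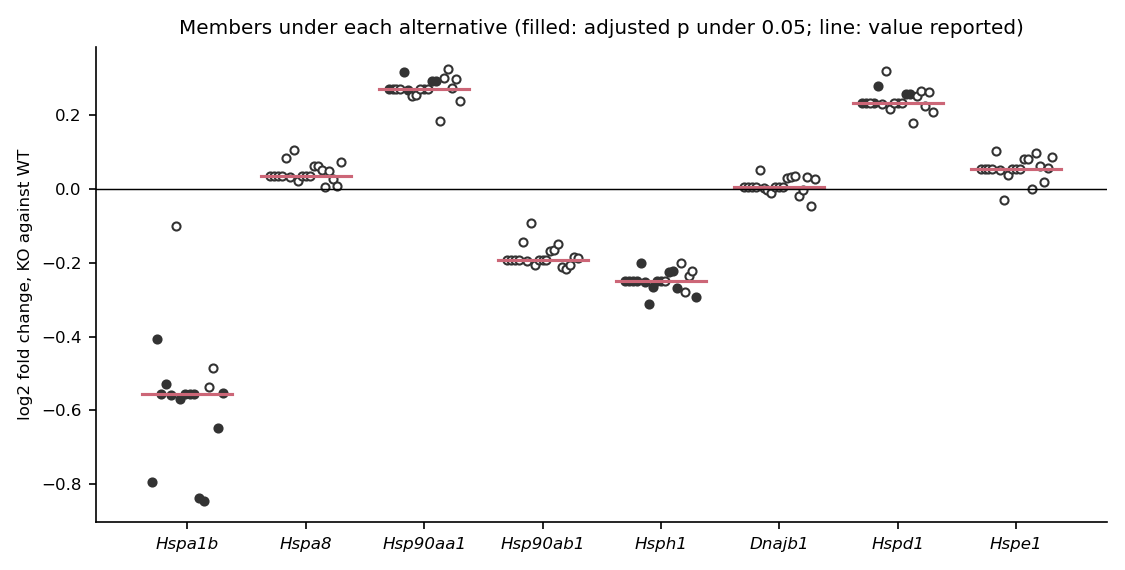
Log2 fold change (KO against WT) of the 8 tested members under each alternative setting, with filled points where the adjusted p was under 0.05 and a line at the value reported. Hsp90aa1 and Hspd1 stay above 0 and Hspa1b, Hsp90ab1 and Hsph1 below 0 in all settings, while filled and open points mix for all of these but Hsp90ab1, which has open points only.

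The heat shock factors themselves were present. Hsf1, the factor that controls the members, stood at 35.0 ± 2.89 CPM in WT against 28.8 ± 1.92 CPM in KO, without overlap (log2 fold change -0.28 ± 0.09, limma adjusted p = 0.0469). Its call was lost in 10 of 19 alternatives, among them each run without a KO library (adjusted p = 0.0782 to 0.171), without WT replicate 1 (0.0783) and without WT replicate 2 (0.0898). Of the 6 genes in the list of heat shock factors and their binding proteins, 3 were tested and only Hsf1 was called. That is 33.3% called, against 30.4% of all tested genes. Hsf2 and Hsbp1 were tested and not called, and Hsf4, Hsf5 and Hsbp1l1 were too low to test.

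Of 17 other genes listed as heat-inducible targets of HSF1, 13 were tested. Limma called 0 higher and 2 lower (2 were higher at an unadjusted p under 0.05). That is 15.4% called, against 30.4% of all tested genes. The list's median log2 fold change was -0.04. Whether heat induces each gene of the list, among them Hspa1l and Hspa2, was not tested here. Hspa4l, a further HSP110 protein, fell from 72.4 ± 8.24 to 36.9 ± 1.54 CPM, to 0.510 times its WT level (log2 fold change -0.96 ± 0.09, limma adjusted p = 0.000201), and was called in all 19 alternatives. Hspa1l, which lies beside Hspa1a and is best known from the testis, fell from 2.6 ± 0.845 to 1.48 ± 0.204 CPM (adjusted p = 0.0388). Its call was lost in 6 of 18 alternatives, among them without any 1 of the KO libraries (0.0600 to 0.127). WT replicate 2 held the highest Hspa1l level, 3.58 CPM against 2.14 and 2.09 CPM in the other WT libraries, and without it the log2 fold change was -0.41 (adjusted p = 0.0468) instead of -0.62. EdgeR and DESeq2 each called 5 genes of this list, where they called 31.6% and 35.4% of all tested genes. In both, Hspa4l, Hspa1l and Dnajb4 were lower and Zfand2a and Cacybp were higher.

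Among 16 tested J-domain partners of HSP70 1 rose and 3 fell in limma, 25% against 30.4% of all tested genes, a share near the background. EdgeR called 5 and DESeq2 6 of them. Dnajc5, which encodes cysteine string protein of secretory vesicles, rose from 167 ± 3.09 to 252 ± 10.01 CPM (log2 fold change 0.59 ± 0.06, limma adjusted p = 0.000259). Dnajb5 fell from 3.88 ± 0.363 to 2.54 ± 0.172 CPM (adjusted p = 0.00681), Dnajb2 from 13.2 ± 0.979 to 9.49 ± 0.902 CPM (0.0103) and Dnajc27 from 45.3 ± 2.38 to 35.1 ± 3.81 CPM (0.0186). The call of Dnajb5 was lost in 1 of 18 alternatives (adjusted p = 0.113). That of Dnajb2 was lost in 1 of 19, without KO replicate 1 (0.0505). Dnajc27 lost its call in 3 of 19, among them without KO replicate 1 (0.0842) and without KO replicate 2 (0.0747). Of 11 tested exchange factors and regulators of HSP70, Hspa4l alone was called by limma, 9.09% against 30.4% of all tested genes. Hspa4l is also counted among the listed HSF1 targets, and the lists share other genes, such as Bag3, Dnaja1 and Fkbp4.

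Among 19 HSP90 cochaperones, all tested, 2 rose and 1 fell in limma, 15.8% against 30.4% of all tested genes, and the list's median log2 fold change was 0.01. EdgeR called 4 and DESeq2 6. Fkbp5, which encodes the steroid receptor cochaperone FKBP51, rose 3.18-fold, from 77.0 ± 3.39 to 245 ± 9.85 CPM (log2 fold change 1.66 ± 0.06, limma adjusted p = 1.78e-06), the largest change among the genes named here. Its KO libraries held 234 to 253 CPM and its WT libraries 74.0 to 80.7 CPM. Ahsa1, the activator of the HSP90 ATPase, rose 1.183-fold to 183 ± 2.63 CPM (adjusted p = 0.0190) and Ttc4 fell to 44.0 ± 1.67 CPM, 0.817 times its WT level (0.0128). The Ahsa1 call was lost in 7 of 19 alternatives, among them without any 1 library other than WT replicate 1 (0.0509 to 0.0800). The Ttc4 call was lost in 3 of 19, among them without KO replicate 1 (0.0632) and without KO replicate 2 (0.0551).

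**Figure D5:**
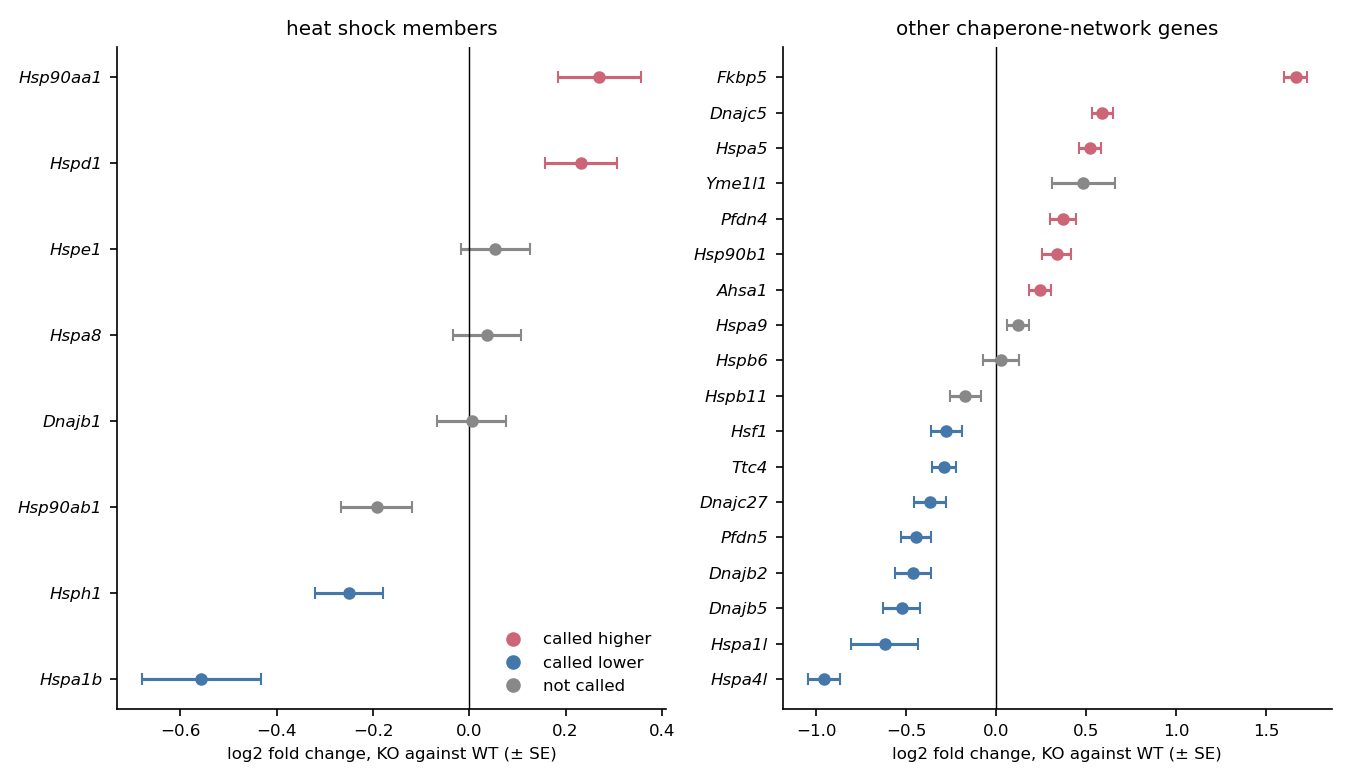
Log2 fold change (KO against WT) ± SE of the 8 tested members (left) and of 18 genes named from the lists of partners, regulators and relatives (right), with colour for the limma call. The members lie between -0.56 and 0.27, while Fkbp5 lies at 1.66 and Hspa4l at -0.96.

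Of the other mitochondrial chaperones and proteases none was called by limma. Limma called 0 of the 16, with 3 at an unadjusted p under 0.05, where it called 30.4% of all tested genes. EdgeR called 1 (Yme1l1) and DESeq2 2 (Hspa9 and Yme1l1). The most abundant was Hspa9, mitochondrial HSP70, at 1016 ± 16.5 CPM in WT against 1104 ± 36.0 CPM in KO (log2 fold change 0.12 ± 0.06, limma adjusted p = 0.181). Yme1l1, a protease of the inner membrane, stood at 188 ± 47.4 and 258 ± 22.0 CPM (adjusted p = 0.0743). Without WT replicate 1 limma called 3 of the list, and the log2 fold change of Yme1l1 was 0.26 (adjusted p = 0.0446) instead of 0.49.

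In the cytosolic chaperonin TRiC and its helper prefoldin, 1 of 14 rose and 1 fell in limma, both prefoldin subunits. That is 14.3% called, against 30.4% of all tested genes. Pfdn4 rose from 22.2 ± 1.33 to 28.9 ± 0.337 CPM (limma adjusted p = 0.00654) and Pfdn5 fell from 114 ± 5.84 to 84.1 ± 7.83 CPM (0.00566). Of the 4 relatives of the members in the endoplasmic reticulum, 2 rose in limma, 50% called against 30.4% of all tested genes. Hspa5, which encodes BiP, went from 1871 ± 18.2 to 2687 ± 11.3 CPM (log2 fold change 0.52 ± 0.06, limma adjusted p = 0.000692) and Hsp90b1, which encodes GRP94, from 1394 ± 81.6 to 1762 ± 116 CPM (0.34 ± 0.08, 0.0152). The Hsp90b1 call was lost in 3 of 19 alternatives, among them without KO replicate 1 (0.0636).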

How the data were processed

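Poly(A) RNA libraries of 3 WT and 3 KO plates were sequenced as paired reads of 125 bases, per the labels' protocols. STAR 2.6.0a with mm10 is named, beside SAMtools, Picard, FastQC and Trim Galore, per the submitters' processing notes, and duplicates were removed, per the file headers. The counter, the annotation and any use of strand were not given in the sources used here. Values are the authors' deposited CPM, with no further scaling recorded. Values were whole multiples of 1 read in 100% of cases (tolerance 0.01 of a read), so reads were recovered. Floors and intervals of counts cover counting error only.

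The 10614 genes that reached 1 CPM in 3 or more libraries were tested with limma 3.58.1 (R 4.3.3, trend) on log2(CPM + 0.5), with Benjamini-Hochberg adjustment over all of them and a threshold of 0.05. Limma called 3230 genes. On recovered reads edgeR 4.0.16 called 3359 and DESeq2 1.42.0 called 3758. Sums and ratios were tested by exact permutation (scipy 1.17.1). The members and lists were chosen with earlier results of these data known. All 10 members are named, with up to 4 called genes of each of 9 lists by adjusted p or, where none was called, the 2 most abundant tested. Coordinates come from GENCODE M21 (mm10) and promoters from RefSeq (GRCm38.p6). Alternatives were pseudocounts, filters, scalings, limma settings, a replicate block, other tools and leaving out each library.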

Additional observations from a re-analysis of the deposited data

How the results depend on the processing

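Each member's value was recomputed under up to 19 alternatives, and no call changed direction. Hspa8, Hsp90ab1, Dnajb1 and Hspe1 were not called in any of them. A member given below with a fold change and an adjusted p of 0.05 or more had lost its call in that setting. Replicate numbers did not pair the libraries (correlations of same-numbered libraries -0.25, -0.64 and -0.17), and with the replicate block 2009 genes were called (891 higher, 1118 lower) and 1 member (0 higher, 1 lower), with Hsp90aa1 at 0.27 (adjusted p = 0.101), Hsph1 at -0.25 (0.115) and Hspd1 at 0.23 (0.156), and with 0 heat shock factors, 1 HSF1 target, 1 HSP90 cochaperone and 1 endoplasmic reticulum relative. Without a filter 2 members were called (0 higher), with Hsp90aa1 at 0.27 (0.0881) and Hspd1 at 0.23 (0.139), 1 HSF1 target, 1 small heat shock protein and 1 endoplasmic reticulum relative. At 5 CPM or more it was 2 members (1 higher, 1 lower), Hsp90aa1 at 0.27 (0.0513) and 1 HSF1 target, and Hspa1b gave no value. Quantile normalization gave 1 member (0 higher, 1 lower), Hsph1 at -0.31 (0.00629), and 0 heat shock factors. The calls of Hspa1b at -0.10 (0.576), Hsp90aa1 at 0.25 (0.0704) and Hspd1 at 0.32 (0.0502) were lost. Rescaling without Rn45s gave 2 members (0 higher), Hsp90aa1 at 0.26 (0.0532) and Hspd1 at 0.22 (0.0577). Limma without trend gave 2 (0 higher), Hsp90aa1 at 0.27 (0.0613), Hspd1 at 0.23 (0.0533) and 0 heat shock factors. Upper-quartile scaling gave 1 member higher, Hsp90aa1 at 0.27 (0.0457), with 4 HSF1 targets and 1 mitochondrial gene. The call of Hspd1 was lost there, at 0.23 (0.0749). TMM gave 0 heat shock factors, 4 HSF1 targets and 1 mitochondrial gene. EdgeR gave 5 HSF1 targets and 1 mitochondrial gene, and DESeq2 5 and 2, with 6 HSP90 cochaperones. Leaving out 1 library gave 1918 to 3527 called genes (913 to 1643 higher, 1005 to 1884 lower), 0 to 2 members (0 higher, 0 to 2 lower), 0 to 1 heat shock factors, 1 to 3 HSF1 targets, 2 to 6 J-domain partners, 1 to 4 HSP90 cochaperones, 0 to 3 mitochondrial genes and 1 to 3 endoplasmic reticulum relatives. In those runs Hspa1b lay at -0.65 to -0.48 (no value without a WT library), Hsp90aa1 at 0.18 to 0.33, Hsph1 at -0.29 to -0.20 and Hspd1 at 0.18 to 0.27. Higher calls outnumbered lower ones with TMM (1840 and 1569), quantile normalization (1570 and 1486) and without WT replicate 2 (1439 and 1328), against 1436 and 1794 as reported. The causes were not tested. Ratios were recomputed in alternatives chosen after seeing the data. Depth limits Hspa1a and Hspb1, at or under 3 reads.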

Other observations

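Hspb7, a small heat shock protein best known from heart and muscle, was too low to test, with 48, 73 and 54 reads in the WT libraries against 33, 37 and 35 in KO. Its levels were 0.951, 1.08 and 0.925 CPM in WT and 0.469, 0.619 and 0.525 CPM in KO, and the groups did not overlap. It was singled out after its values were seen. Hspa2, the testis form of HSP70, had 54, 68 and 58 reads in WT and 50, 53 and 53 in KO.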
